A study of Mus musculus with 15 samples.

Results

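The comparison described here is the effect of the oncogenic Nras allele G12D on mouse haematopoietic stem and progenitor cells, taken across cells that had or lacked Tet2. It set 6 RNA-seq libraries with Nras G12D against 6 libraries with normal Nras, out of 15 libraries in all, with Tet2 genotype as a covariate. The G12D side held 3 Nras(G12D) libraries and 3 libraries of non-leukemic double mutants, which carried Nras(G12D) and had lost Tet2, written Tet2-/- Nras(G12D). The normal side held 3 wild-type (WT) libraries and 3 Tet2-/- libraries. The 3 libraries of leukemic double mutants were left out. All animals were of the C57BL/6 strain, and the mutations were conditional and restricted to blood-forming tissue. The Cre driver was not given in the sources used here, and the age of 6 months was stated for the animals whose methylome was examined. The cells were sorted as LSK cells (lineage-negative, Sca1-positive, cKit-positive), a bone marrow population that holds stem cells and multipotent progenitors. In the group of Nras(G12D) libraries the middle column was named N2-3, which did not point to a single sample, and it is called Nras(G12D) N2-3. Whether each library of a group was made from its own animal is not stated in the labels, and a p-value here measures the spread between these libraries, which may be technical.

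NRAS is a small GTPase that passes signals from cytokine and growth factor receptors to RAF, MEK and ERK kinases, and to PI3K. The G12D change slows the return of RAS to its inactive state. ERK then acts on transcription, first on immediate early genes such as those of the FOS, JUN and EGR families, and later on its own inhibitors of the Sprouty, SPRED and dual-specificity phosphatase families. TET2 oxidises methylated cytosine in DNA, and loss of TET2 and activation of NRAS are both found in myeloid leukaemia.

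The deposited table held 44827 genes as log2 CPM (counts scaled to library size), made from 22733189 to 43562909 counts per library, and 13710 genes with a log2 value of at least 0 in 3 or more of the 12 libraries were tested. Among replicate libraries the correlation of log2 values lay between 0.916 and 0.975. The main axis of variation between the libraries, which took up 43.5% of it in a principal component analysis, placed double mutant 2 and 3 (at -74 and -75.8) opposite Tet2-/- 1 and 3 (at 104.9 and 89), with the other 8 libraries between -45.2 and 32.2. Without Tet2-/- 1 and 3, the Nras difference lay nearer to 0 in 141 of 158 named genes and moved by over 1.5 times in 56. Values without these libraries are given below for only some of the genes and lists, and the others may depend on them as much. The part of this axis in the Nras differences was not tested. Y-linked Ddx3y was detected at 91.5 CPM or more in 2 of the 6 G12D libraries and 2 of the 6 normal libraries. These were Nras(G12D) N2-3, double mutant 1, and Tet2-/- 1 and 2, while WT libraries had 0.457 CPM or less. The Y-linked signal was thus not balanced within either Tet2 background. Among LSK surface genes, Kit, which encodes the stem cell factor receptor, had 434 to 1830 CPM in the 6 G12D libraries and 1130 to 2910 CPM in the 6 normal libraries. Ly6a, which encodes Sca1, had 59.3 to 129 CPM in G12D libraries and 73.6 to 198 CPM in normal libraries, so both sort markers were present in all 12.

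Nras transcripts averaged 167 ± 22.4 CPM in G12D libraries and 205 ± 47.2 CPM in normal libraries (SD, n = 6 each), with a log2 difference of -0.28 ± 0.16 (SE) that did not pass the test (limma, adjusted p = 0.223). The lowest and highest Nras values were 145 and 200 CPM in G12D libraries, against 167 and 282 CPM in normal libraries, and the ranges overlapped. A gene count does not separate the G12D from the normal allele, so it does not check the Nras labels. Tet2 averaged 57.3 ± 10.8 CPM in G12D libraries and 53.7 ± 10.7 CPM in normal libraries (SD, n = 6 each), a log2 difference of 0.10 ± 0.18 (SE). In the 6 libraries labelled as Tet2-null, Tet2 had 62.6, 56.3 and 47.9 CPM in double mutants and 35.9, 59.8 and 49.3 CPM in Tet2-/- libraries. The Tet2-intact libraries had 56.8, 45.2 and 75.1 CPM with Nras(G12D) and 65.2, 50.7 and 61 CPM in WT, so the whole-gene count did not set the Tet2 genotypes apart.

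Across all tested genes, 2 passed the test of the Nras main effect at an adjusted p below 0.05, and both rose in G12D cells: Fosb and Atf3 (limma, Benjamini-Hochberg). This was 0.0146% of tested genes for the higher direction and 0% for the lower. A further 4778 of the 4780 genes with an unadjusted p below 0.05, which made up 34.9% of those tested (2679 higher and 2101 lower in G12D), did not pass, and 2983 genes (1888 higher, 1095 lower) had an adjusted p below 0.1. The next gene by p, Robo3, had an adjusted p of 0.0564, and 1009 genes shared the adjusted p of 0.0744. The additive fit takes the Nras difference to be equal with and without Tet2. When each of the 4 groups was given its own mean and the same average difference was tested, 2379 genes passed, 1717 higher in G12D (12.5%) and 662 lower (4.83%). In 93 genes all 6 G12D libraries lay above all 6 normal libraries (0.678%), in 128 genes all 6 lay below (0.934%), and 190 of these 221 passed in the fit with a mean per group. The median difference over all genes was 0.001, and 50.1% of genes were above 0.

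The number of calls depended on single libraries. With 1 library left out, the additive fit called 2296 genes without Nras(G12D) N2-3, 3387 without Nras(G12D) 3 and 1021 without WT 2, against 0 or 1 without any other library. The fit with a mean per group called 3884 without Nras(G12D) N2-3, 3629 without Nras(G12D) 3, 2569 without double mutant 1, 1604 without WT 2 and 5142 without Tet2-/- 2, against 0 without each of the other 7. With Tet2-/- 1 and 3 both left out, the additive fit called 1 gene and the fit with a mean per group 2. Below, a gene is said to have risen only where the additive fit called it, and the other genes are given as values with their adjusted p in the additive fit.

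**Figure D1:**
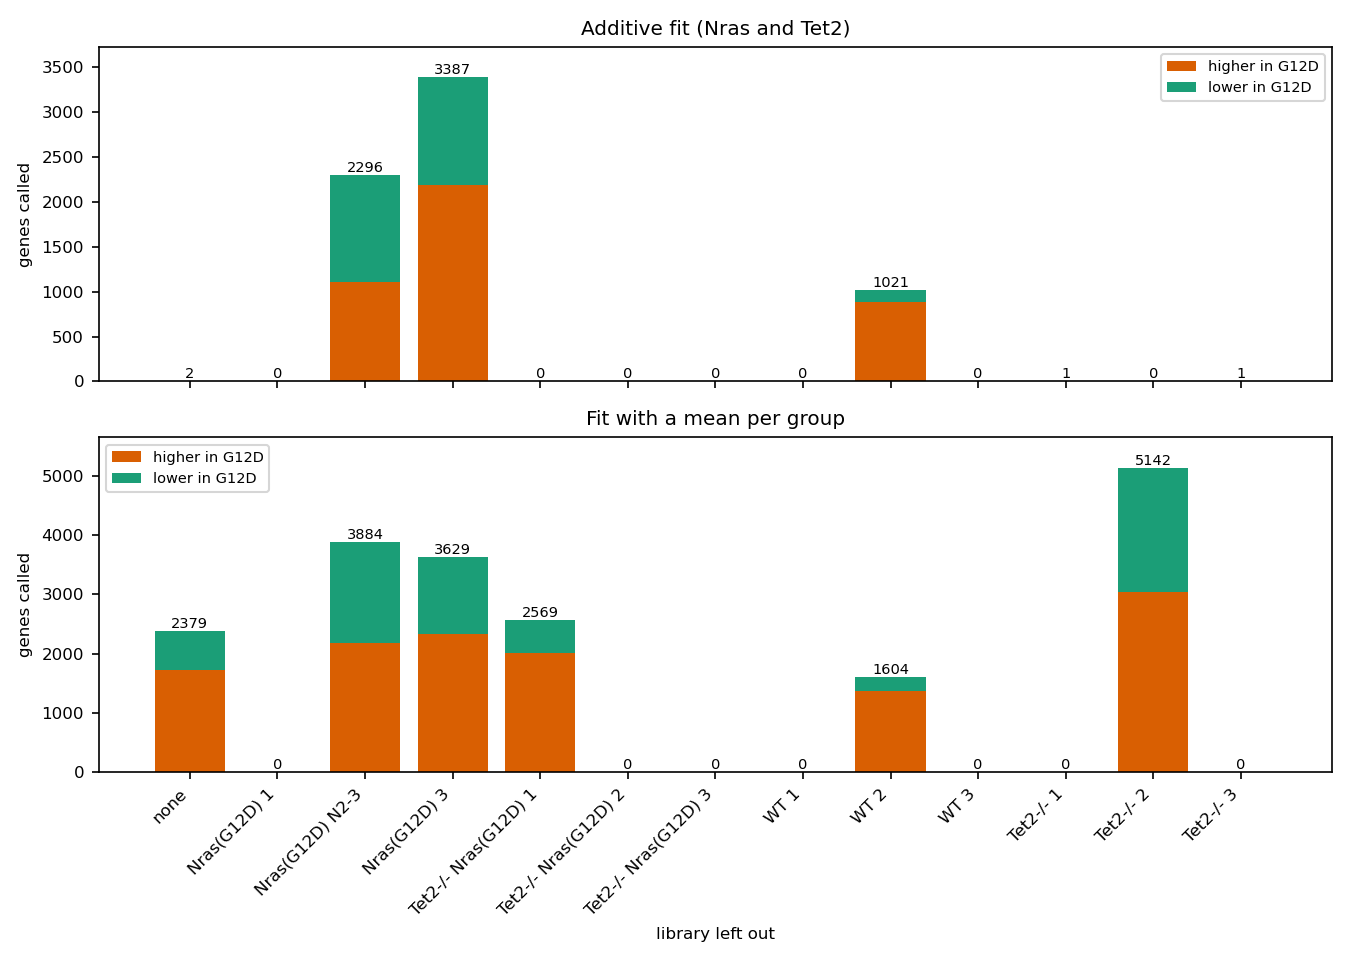
Number of genes called at an adjusted p below 0.05 (limma) in the additive fit (top) and in the fit with a mean per group (bottom), with all 12 libraries (none) and with each library left out, split into genes higher and lower in G12D. The bars run between 0 and 3387 genes in the additive fit and between 0 and 5142 in the other fit.

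Fosb, which encodes an AP-1 transcription factor of the FOS family (chr7:19302696-19310051, minus strand, GRCm38), rose in G12D cells. It had 2.03, 2.07 and 6.38 CPM in Nras(G12D) libraries and 11.4, 29.1 and 51.6 CPM in double mutants, against 0.648, 0.548 and 0.329 CPM in WT and 1.06, 2.2 and 1.24 CPM in Tet2-/- libraries. Double mutants were highest and WT lowest, and the 2 sides overlapped only where Tet2-/- 2 at 2.2 CPM lay above Nras(G12D) 1 and N2-3. The log2 difference was 3.36 ± 0.46 (SE; adjusted p = 0.0496), made up of 2.56 with Tet2 intact and 4.16 with Tet2 lost. Atf3, which encodes a stress-induced transcription factor of the ATF/CREB family (chr1:191170296-191218039, minus strand), also rose. It had 0.591, 0.801 and 0.496 CPM in Nras(G12D) libraries and 3.63, 3.23 and 3.02 CPM in double mutants, against 0.152, 0.0782 and 0.11 CPM in WT and 0.17, 0.574 and 0.574 CPM in Tet2-/- libraries. Here too the overlap was slight, since Nras(G12D) 3 lay below the 2 highest Tet2-/- libraries. The log2 difference was 2.66 ± 0.36 (SE; adjusted p = 0.0496), with 2.29 in Tet2-intact and 3.03 in Tet2-null cells. Atf3 reached the filter's log2 value of 0 in the 3 double mutants and in no normal library, so it was tested only through the side where it is high. It rested on few reads, 63 counts over the Nras(G12D) libraries and 298 over the double mutants, against 9 over WT and 41 over Tet2-/-. Over the 12 fits that each left out 1 library, the Fosb difference stayed between 3.05 and 3.57 and passed in 3, and the Atf3 difference stayed between 2.38 and 2.79 and passed in 4. Without Tet2-/- 1 and 3 the differences were 2.89 for Fosb and 2.36 for Atf3, neither passing (adjusted p = 0.323 and 0.0759).

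The sequences before the RefSeq starts of the 2 called genes, and of Klf2, the other immediate early gene with a difference above 2 in both Tet2 backgrounds, are shown because factors that act on immediate early genes are known to bind there. RefSeq promoter windows on GRCm38.p6 were found for 17 of the 19 tested immediate early genes, and the 250 bases before the start of transcription are printed 5′ to 3′ on the strand of the gene. The windows are chr7:19310046-19310295 on the minus strand for Fosb, chr1:191183334-191183583 on the minus strand for Atf3 and chr8:72318812-72319061 on the plus strand for Klf2. The Atf3 window lies inside the gene's GENCODE coordinates, at the start of its shorter annotated transcript. In all 3 windows the last bases run past a GENCODE start, which for Klf2 lies at chr8:72319033, well before the window's end at 72319061. Capitals mark the core of the cAMP response element, TGACG, on either strand, which CREB and ATF proteins are known to bind. Between it and the RefSeq start lay 55 bases in Fosb, 2 in Atf3 and 236 in Klf2.
Fosb: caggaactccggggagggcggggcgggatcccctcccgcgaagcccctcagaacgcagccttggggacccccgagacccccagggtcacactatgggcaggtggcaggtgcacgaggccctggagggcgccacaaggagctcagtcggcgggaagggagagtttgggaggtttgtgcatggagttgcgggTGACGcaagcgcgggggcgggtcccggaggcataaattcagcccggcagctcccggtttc
Atf3: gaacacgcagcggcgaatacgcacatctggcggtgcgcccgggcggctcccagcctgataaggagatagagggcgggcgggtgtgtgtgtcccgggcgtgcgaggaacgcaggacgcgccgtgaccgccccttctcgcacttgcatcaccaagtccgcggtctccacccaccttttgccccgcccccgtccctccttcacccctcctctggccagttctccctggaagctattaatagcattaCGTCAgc
Klf2: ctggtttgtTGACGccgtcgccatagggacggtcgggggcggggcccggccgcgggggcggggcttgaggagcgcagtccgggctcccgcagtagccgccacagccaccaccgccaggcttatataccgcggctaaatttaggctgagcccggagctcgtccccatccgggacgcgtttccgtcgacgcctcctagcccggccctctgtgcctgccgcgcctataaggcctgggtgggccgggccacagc

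The full cAMP response element (TGACGTCA), the AP-1 site (TGANTCA), the ETS site (CCGGAAG), the E box (CACGTG) and the CArG box, the serum response factor motif, had no match in these 3 windows on either strand. Of the 17 windows, 2 held the full cAMP response element (Btg2 and Dusp1), 0 the AP-1 site, 1 the ETS site (Zfp36), 3 the E box and 1 the CArG box (Zfp36). Among all 32851 windows the shares were 1.55%, 6.75%, 6.91%, 6.02% and 1.47% in the same order of motifs, and among the 9786 windows of tested genes 2.73%, 4.21%, 14.1%, 8.37% and 1.1%. The core TGACG, which lies within the full element and was added after the sequences had been seen, was in 10 of the 17 windows and in 17.8% of all windows, or 27.3% of the 9786 windows of tested genes. These 10 include the Fosb, Atf3 and Klf2 windows printed above, so the count is not free of how the motif was chosen. A match says only that the letters are present.

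The immediate early list held 23 genes, of which 19 were tested, and all 19 had a positive Nras difference, between 0.34 and 3.36 with a median of 1.92, while 50.1% of all genes were positive. Besides the 2 called genes, 12 more passed in the fit with a mean per group, where 12.5% of all genes were called higher. The list differed in size between Tet2 backgrounds, with a median of 0.57 for Nras(G12D) minus WT and 3.27 for double mutant minus Tet2-/-. Jun, the AP-1 partner of FOS proteins, had 47.1, 53.7 and 38.4 CPM in Nras(G12D) libraries and 379, 1230 and 1630 CPM in double mutants, against 15, 57.8 and 33.7 CPM in WT and 12, 39.9 and 9.44 CPM in Tet2-/- libraries. The 3 double mutants stood alone, and the Nras(G12D) libraries lay inside the WT range (log2 difference 3.18, adjusted p = 0.0744). Fos had 47.7, 16.3 and 155 CPM in Nras(G12D) libraries and 466, 745 and 955 CPM in double mutants, against 29.6, 39.6 and 30.5 CPM in WT and 109, 108 and 88.9 CPM in Tet2-/- libraries (difference 1.68, adjusted p = 0.0749). Egr1, which encodes a zinc finger factor that responds to growth signals, had 6.42, 5.94 and 7.56 CPM in Nras(G12D) libraries and 181, 189 and 163 CPM in double mutants, against 5.95, 12.2 and 8.13 CPM in WT and 18.8, 13.4 and 4.18 CPM in Tet2-/- libraries. Egr1 was thus set apart in double mutants alone, with -0.34 in Tet2-intact and 4.12 in Tet2-null cells (overall 1.89, adjusted p = 0.0951). The differences were 1.89 for Jun, 1.28 for Fos and 1.01 for Egr1 without Tet2-/- 1 and 3. Klf2, a factor that keeps lymphocytes quiescent, differed in both backgrounds, by 2.29 and 4.40. It had 4.5, 0.672 and 0.991 CPM in Nras(G12D) libraries and 2.97, 16.8 and 22.7 CPM in double mutants, against 0.146 to 0.419 CPM in WT and 0.255 to 0.766 CPM in Tet2-/- libraries. Like Atf3 and Maff, Klf2 passed the filter only through the G12D side, as did 425 of all tested genes, Etv4, Gp5 and Socs1 among them, so a difference in these 3 of the 19 was set by how they entered.

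Jund, Dusp1, Ier5, Ier2 and Junb had differences of 3.16, 2.99, 2.68, 2.23 and 2.01, of which 1.30, 0.78, 1.28, 0.03 and 0.17 were seen with Tet2 intact. At the low end, Fosl2, Klf6, Btg2 and Zfp36 differed by 0.34 to 0.67. Summed over the list, immediate early genes had 577 to 831 CPM in Nras(G12D) libraries and 3170 to 5280 CPM in double mutants, against 405 to 585 CPM in WT and 741 to 929 CPM in Tet2-/- libraries. The double mutants thus stood apart from the other 9 libraries, and WT was lowest, with a slight overlap with Nras(G12D). Without Tet2-/- 1 and 3 the median of the list was 1.63, with all 19 still above 0. These genes can also be induced while cells are sorted, so heat shock and chaperone genes were set beside them. Of 15 tested, 8 had a positive difference, with a median of 0.02. Hspa1a, an inducible HSP70 gene, had 3.43, 5.79 and 4.09 CPM in Nras(G12D) libraries and 10.8, 27.4 and 79.2 CPM in double mutants, against 0.724, 3.09 and 4.17 CPM in WT and 0.68, 3.44 and 1.66 CPM in Tet2-/- libraries (difference 2.60, adjusted p = 0.0744). Hspa1b, its near-identical copy, differed by 2.31, and the division of reads between the 2 copies is uncertain. Both were highest in the double mutants, and Hspa1a and Hspa1b differed by 1.7 and 1.4 without Tet2-/- 1 and 3. Their part in the immediate early differences was not tested.

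**Figure D2:**
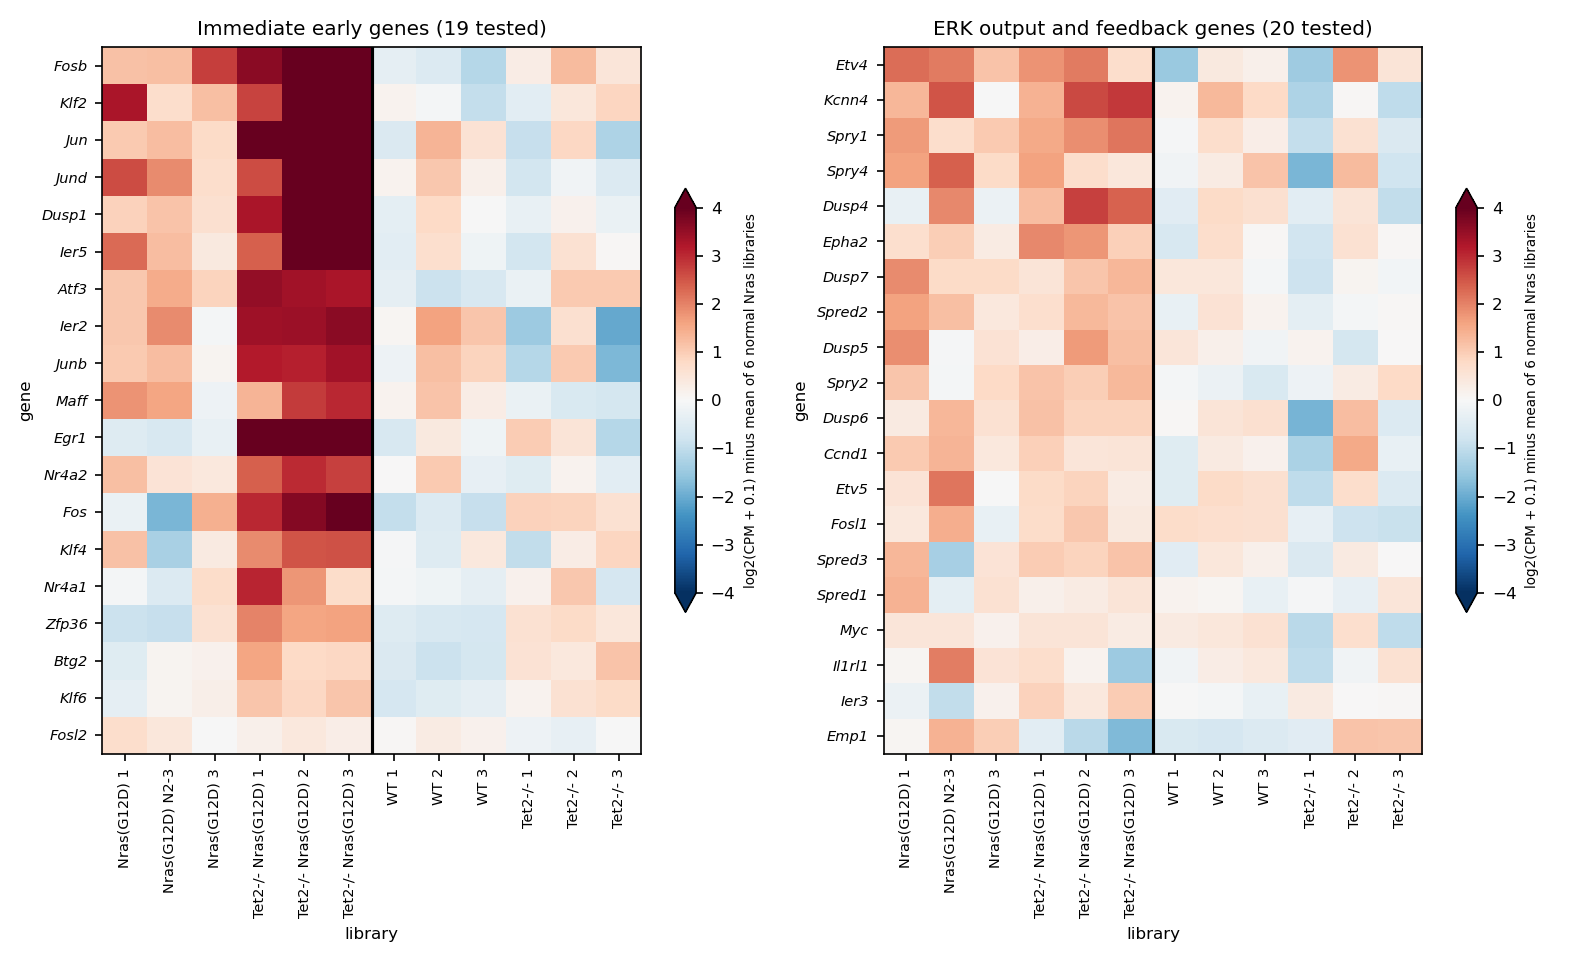
Heat map of log2(CPM + 0.1) minus the mean of the 6 normal Nras libraries for the 19 tested immediate early genes (left) and the 20 tested ERK output and feedback genes (right), with 1 column per library and G12D libraries left of the black line. The immediate early panel is darkest in the 3 double mutants, while the ERK output panel is paler and spread over Nras(G12D) and double mutant libraries.

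Genes known as transcriptional output of ERK and as its feedback inhibitors were nearer in size between the Tet2 backgrounds. Of 20 tested, 19 had a positive difference, with a median of 0.89 (0.64 with Tet2 intact, 1.22 with Tet2 lost). None passed in the additive fit, and 6 passed in the fit with a mean per group, all higher, where 12.5% of all genes did. The summed level of the list was 1170 to 1740 CPM in Nras(G12D) libraries and 1520 to 1580 CPM in double mutants. In WT it was 1070 to 1320 CPM and in Tet2-/- 1, 2 and 3 it was 502, 1540 and 646 CPM, so the sides overlapped. The Sprouty gene Spry1, whose product restrains receptor signalling to RAS, did not overlap between the sides. It had 8.19, 4.08 and 5.2 CPM in Nras(G12D) libraries and 7.19, 9.26 and 11.2 CPM in double mutants, against 2.36, 4.07 and 3 CPM in WT and 1.23, 3.84 and 1.6 CPM in Tet2-/- libraries (difference 1.53 ± 0.35, adjusted p = 0.0744). The gap between the sides was narrow, 4.08 against 4.07 CPM, and without Tet2-/- 1 and 3 the Spry1 difference was 0.98. Such separation in the higher direction was seen in 0.678% of all tested genes. Dusp7, a phosphatase that inactivates ERK, likewise did not overlap, with 23.6, 10.8 and 10.7 CPM in Nras(G12D) libraries and 9.06, 13.7 and 16 CPM in double mutants, against 8.61, 8.76 and 5.97 CPM in WT and 3.53, 6.79 and 5.84 CPM in Tet2-/- libraries (difference 1.07 ± 0.27, adjusted p = 0.0744). Spry2 differed by 0.93 with Tet2 intact and 0.86 with Tet2 lost. It had 2.61 to 6.99 CPM in G12D libraries and 1.79 to 4.85 CPM in normal libraries, and Nras(G12D) N2-3, the lowest of the G12D side, was the library that overlapped the normal side. Spred2, which blocks RAF activation by RAS, differed by 1.06 ± 0.23, with 12.8 to 29 CPM in G12D libraries and 7.18 to 14.2 CPM in normal libraries (adjusted p = 0.0744).

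Dusp6, the ERK-specific phosphatase, averaged 227 ± 55.1 CPM in G12D libraries and 147 ± 88.6 CPM in normal libraries (SD, n = 6 each). Its normal side ran between 32.8 and 286 CPM, with Tet2-/- 1 lowest and Tet2-/- 2 highest, and the difference of 0.88 did not pass (adjusted p = 0.154). It lay between 0.49 and 1.19 with 1 library left out, and was 0.16 without Tet2-/- 1 and 3. Etv4 and Etv5, ETS factors induced by ERK, differed by 1.98 and 0.78, Ccnd1, which encodes cyclin D1, by 0.81, and Myc by 0.42, none passing. Etv4 passed the filter only through the G12D side, where it is high. Kcnn4, a calcium-gated potassium channel, differed by 1.79 and Dusp4 by 1.32, while Emp1 was the single negative gene at -0.14. The list median was 0.70 without Tet2-/- 1 and 3, with 18 of 20 positive.

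Upstream of ERK, 20 of 25 tested genes for RAS isoforms, exchange factors, adaptors and GTPase activators had a positive difference, with a median of 0.52. In the fit with a mean per group 10 passed, all higher, against 12.5% of all genes, and in the additive fit none. In 0.678% of all tested genes all 6 G12D libraries lay above all 6 normal ones. Grb2, the adaptor that links receptors to the RAS exchange factor SOS, was the 1 such gene of this list. It had 86.9, 36.9 and 33.1 CPM in Nras(G12D) libraries and 36.6, 144 and 115 CPM in double mutants, against 23.7, 30.7 and 19.5 CPM in WT and 15.1, 16 and 24.9 CPM in Tet2-/- libraries (difference 1.59 ± 0.38, adjusted p = 0.0744). Hras, another RAS isoform gene, differed by 1.56, with 2.27 to 16.2 CPM in G12D libraries and 1.45 to 2.74 CPM in normal libraries. Double mutant 2 and 3 were the highest of the 12. Rasal3, a RAS GTPase activator of blood cells, had a difference of 2.17, Ptpn11, which encodes the phosphatase SHP2, 1.05, and Nf1, the neurofibromin gene, 0.46. The Rasal3 difference was 0.67 with Tet2 intact and 3.66 with Tet2 lost. The exchange factors Sos1 and Sos2 differed by 0.19 and 0.20. In the RAF, MEK and ERK cascade 11 of 17 were positive (median 0.35), led by Map2k2 at 1.95 and Map2k1 at 1.19, the genes of both MEK kinases, and by the scaffold gene Ksr1 at 1.09. These values were 0.71, 0.09 and 1.03 with Tet2 intact. In the PI3K, AKT and mTOR pathway 16 of 25 were positive with a median of 0.08, and without Tet2-/- 1 and 3 the median was -0.05. Pik3cb and Rheb differed by 1.49 and 1.45, and Pik3cg by -0.71. The RAF, MEK and ERK median was 0.23 without Tet2-/- 1 and 3, and the differences were 1.34 for Rasal3, 1.29 for Map2k2 and 0.81 for Rheb.

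The genes with the smallest p at a log2 level of at least 3 and of one sign in both backgrounds, other than Fosb, did not pass the additive fit. Of the 9 on the higher side, 4 had no overlap between the libraries of the 2 sides. Choosing genes by smallest p favours such separation, which 0.678% of all tested genes showed in this direction. Robo3, a receptor of the axon guidance ROBO family, had 12.5, 6.28 and 6.04 CPM in Nras(G12D) libraries and 20.3, 21.7 and 29.1 CPM in double mutants, against 2.17, 3.29 and 2.86 CPM in WT and 2.29, 5.22 and 3.38 CPM in Tet2-/- libraries. The sides did not overlap (difference 2.13 ± 0.31, adjusted p = 0.0564), and the double mutants were higher than Nras(G12D) alone. Btg1, which encodes an antiproliferative protein, had 27.2, 28.5 and 16.9 CPM in Nras(G12D) libraries and 31.9, 82.4 and 90.5 CPM in double mutants, against 9.87, 15.6 and 9.01 CPM in WT and 8.45, 11.5 and 12.5 CPM in Tet2-/- libraries (difference 1.81 ± 0.34). Pf4, the platelet factor 4 gene, had 146, 54.7 and 96.5 CPM in Nras(G12D) libraries and 65.8, 49 and 61.2 CPM in double mutants, against 31, 47.7 and 30.5 CPM in WT and 9.18, 14.4 and 30.8 CPM in Tet2-/- libraries (difference 1.61 ± 0.31). Unlike Robo3 and Btg1, Pf4 was highest in Nras(G12D) alone. Pip4k2a, a phosphoinositide kinase gene, did not overlap either (difference 1.16), while Slco3a1, an organic anion transporter gene, differed by 1.06 and 1.08 in the 2 backgrounds. Runx3, Tjp1, Samd14 and Pid1 completed the higher side, with differences of 1.42, 1.49, 2.02 and 2.28, and overlapped. Besides Robo3, each of these genes had an adjusted p of 0.0744 in the additive fit and 0.0282 in the fit with a mean per group.

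**Figure D3:**
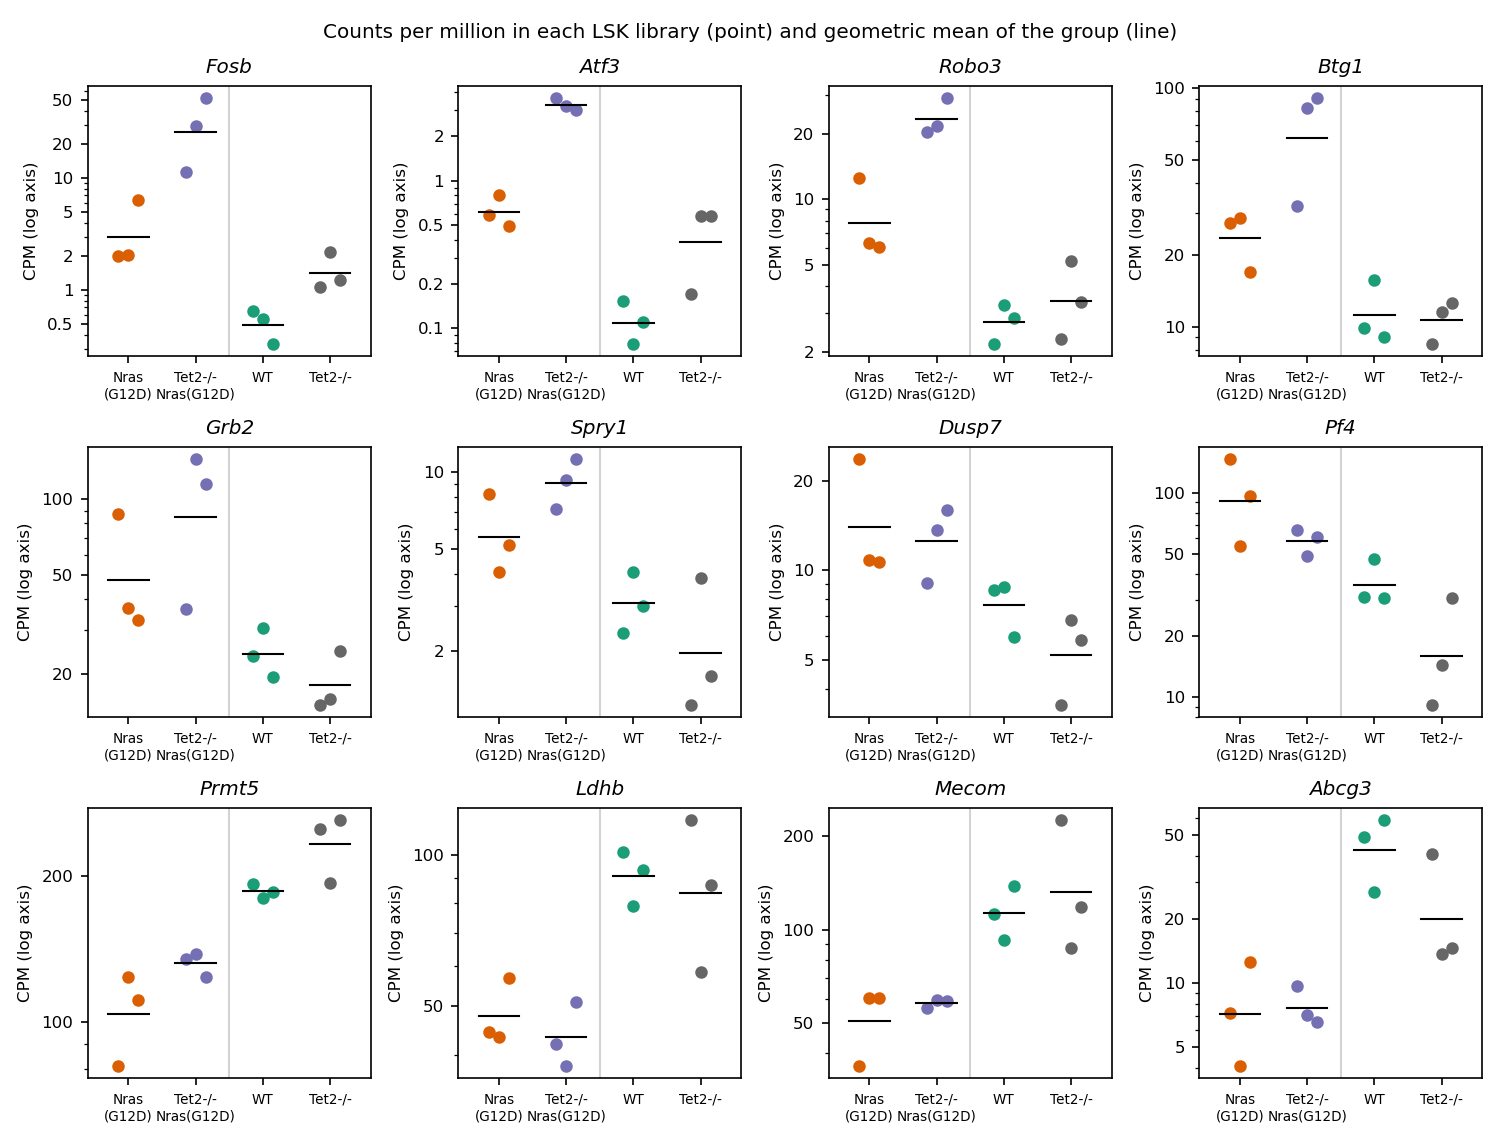
CPM (log axes) of 12 genes in the 3 libraries of each group, with G12D groups left and normal Nras groups right of the grey line, points for libraries and black lines for geometric means of groups. In Robo3, Btg1, Grb2, Spry1, Dusp7 and Pf4 all 6 G12D points lie above all 6 normal points, in Prmt5, Ldhb, Mecom and Abcg3 below, and in Fosb and Atf3 the sides overlap slightly.

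On the lower side 10 genes were named by the same rule, none of which passed the additive fit, and in 7 the libraries of the 2 sides did not overlap. The choice by smallest p again favours such separation, seen in 0.934% of all tested genes in this direction. Mecom, which encodes the stem cell transcription factor EVI1 (chr3:29951296-30548008, minus strand), had 36.4, 60.1 and 60.1 CPM in Nras(G12D) libraries and 56, 59.6 and 58.8 CPM in double mutants, against 112, 92.9 and 138 CPM in WT and 225, 87.1 and 118 CPM in Tet2-/- libraries. The 6 G12D libraries lay below the 6 normal ones, by -1.15 with Tet2 intact and -1.19 with Tet2 lost (overall -1.17 ± 0.22, adjusted p = 0.0744). Prmt5, which encodes an arginine methyltransferase (chr14:54507187-54517525, minus strand), had 81.1, 124 and 111 CPM in Nras(G12D) libraries and 135, 138 and 124 CPM in double mutants, against 193, 180 and 186 CPM in WT and 250, 194 and 261 CPM in Tet2-/- libraries (difference -0.83 ± 0.14). Ldhb, which encodes a lactate dehydrogenase subunit (chr6:142490249-142507957, minus strand), had 44.4, 43.4 and 56.9 CPM in Nras(G12D) libraries and 42, 38 and 51 CPM in double mutants, against 101, 78.9 and 93 CPM in WT and 117, 58.4 and 86.9 CPM in Tet2-/- libraries (difference -0.94 ± 0.18). In all 3 genes the 2 sides did not overlap. Without Tet2-/- 1 and 3, the differences were -0.96 for Mecom, -0.75 for Prmt5 and -0.76 for Ldhb, each with an adjusted p of 0.36.

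Abcg3, a transporter gene of the ABCG family, had 7.23, 4.08 and 12.6 CPM in Nras(G12D) libraries and 9.75, 7.06 and 6.6 CPM in double mutants, against 48.8, 26.8 and 58.6 CPM in WT and 40.6, 13.7 and 14.6 CPM in Tet2-/- libraries. Its difference was -2.56 with Tet2 intact and -1.39 with Tet2 lost, and WT libraries were the highest group. Myof, a membrane repair gene, averaged 22.2 ± 3.68 CPM in G12D libraries and 56.8 ± 30 CPM in normal libraries (SD, n = 6 each), without overlap. Myo5c and Paqr5 were also without overlap, with differences of -1.72 and -0.93. Igf2r, Fstl1 and Bdh2 had differences of -1.49, -1.11 and -1.45 and overlapped. Igf2r, the receptor that clears insulin-like growth factor 2, was lowest in double mutants at 9.65, 9.62 and 3.86 CPM, with 16, 28.3 and 23.8 CPM in Nras(G12D) libraries, against 40.7, 34.9 and 49.6 CPM in WT and 32.3, 25.5 and 33.3 CPM in Tet2-/- libraries.

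Haematopoietic stem cell genes had more negative than positive differences, with 18 of 25 below 0 and a median of -0.48 (-0.53 with Tet2 intact, -0.17 with Tet2 lost). In the fit with a mean per group 5 were called lower and 1 higher, where 4.83% and 12.5% of all genes were. Besides Mecom, those called lower included Procr, the endothelial protein C receptor gene and a stem cell surface marker, at -0.92, Tek, the receptor gene of angiopoietin, at -0.73, and Meis1 at -0.52. Gata2, a stem and progenitor transcription factor, was the higher one at 1.18, and at 0.7 without Tet2-/- 1 and 3. Procr had 16.2, 17.2 and 30.3 CPM in Nras(G12D) libraries and 41.3, 29.1 and 40.5 CPM in double mutants, against 44.5, 37.4 and 38 CPM in WT and 132, 44.5 and 51.4 CPM in Tet2-/- libraries, so Tet2-/- 1 was far above the rest. Hlf, a transcription factor of quiescent stem cells, differed by -0.15, Slamf1, the CD150 gene, by -0.56 and Vwf, the von Willebrand factor gene, by -0.51. Trpc6, Fgd5 and Neo1 had differences of -1.97, -1.87 and -2.45 with Tet2 intact, against 0.42, 0.44 and -0.87 with Tet2 lost. Of the 25, 1 passed the filter only through the normal side. Without Tet2-/- 1 and 3 the median of the list was -0.22, with 16 of 25 below 0, and without Tet2-/- 1 alone -0.21. Among LSK surface markers 9 of 11 were below 0 (median -0.33). The median was 0.03 with Tet2 intact, where 7 of 11 were above 0, and -0.68 with Tet2 lost. It was -0.18 without Tet2-/- 1 and 3. Kit differed by -0.85, and Flt3, which marks multipotent progenitors, by 0.74. In bulk RNA from a sorted population, fewer cells of a type and less RNA per cell cannot be told apart.

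Genes of the lineages that LSK cells give rise to, or that a sort may let through, differed in both directions. Dendritic cell and antigen presentation genes were positive in 17 of 19 (median 0.82), and their summed level was 2330 to 5890 CPM in Nras(G12D) libraries and 3940 to 6040 CPM in double mutants, against 1470 to 1810 CPM in WT and 2020 to 5810 CPM in Tet2-/- libraries. H2-Ab1, an MHC class II gene, had 1050, 192 and 333 CPM in Nras(G12D) libraries and 1150, 701 and 1150 CPM in double mutants, against 91.5, 184 and 208 CPM in WT and 90.4, 774 and 281 CPM in Tet2-/- libraries (difference 1.64, adjusted p = 0.0749). The libraries of a group thus differed widely in this gene, and Zbtb46 and Batf3, factors of conventional dendritic cells, had differences of 1.59 and 1.93. Without Tet2-/- 1 and 3 the median of the dendritic list was 0.55 and the H2-Ab1 difference 1.06. Mast cell, basophil and eosinophil genes were positive in 11 of 13 (median 1.03), at a summed 377 to 535 CPM in Nras(G12D) libraries and 514 to 568 CPM in double mutants, against 242 to 379 CPM in WT and 175 to 292 CPM in Tet2-/- libraries. Prss34, a basophil protease gene, had 21.3 to 65.5 CPM in the 6 G12D libraries, against 19.5 to 50.4 CPM in WT and 1.02, 2.48 and 5.62 CPM in Tet2-/- libraries. The median of the mast cell list was 0.56 without Tet2-/- 1. Ear2 of this list passed the filter only through the G12D side, which favours a positive difference. Erythroid genes were positive in 14 of 21 (median 0.57, but 0.27 without Nras(G12D) N2-3 and 0.90 without double mutant 3). Klf1, Gata1 and Tal1, the transcription factors of the lineage, differed by 2.4, 0.75 and 0.99, and the haemoglobin gene Hbb-bs by -2.36. Megakaryocyte genes were positive in 10 of 17 (median 0.10), and besides Pf4 the platelet glycoprotein gene Gp5 did not overlap, with 1.64 to 23.5 CPM in G12D libraries and 0.34 to 1.6 CPM in normal libraries (difference 3.15, adjusted p = 0.0744). Gp5 reached the filter's log2 value in 6 G12D and 2 normal libraries. It was thus tested only through the side where it is high, as was Clec1b of this list. Thbs1, which encodes thrombospondin 1, had 2.69, 7.05 and 29.9 CPM in Nras(G12D) libraries and 0.899, 2.02 and 1.26 CPM in double mutants, against 304, 77.2 and 302 CPM in WT and 2.08, 0.966 and 2.84 CPM in Tet2-/- libraries. It was thus high in WT alone, with a difference of -4.53 in Tet2-intact and -0.43 in Tet2-null cells (overall -2.48).

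Mature neutrophil genes were positive in 16 of 19 with a median of 0.33, and this rested on Nras(G12D) N2-3, without which the median was -0.43. Ngp, a neutrophil granule gene, had 1400 CPM in Nras(G12D) N2-3, against 25.9 to 138 CPM in the other 11 libraries, and the summed level of the list was 6160 CPM in that library and 796 to 1650 CPM in the others. Monocyte and macrophage genes were positive in 12 of 17 (median 0.09), granulocyte-monocyte progenitor genes in 9 of 20 (median -0.05). Among these Cebpa and Irf8, factors of myeloid fate, differed by 1.44 and 1.54, and Csf3r, the G-CSF receptor gene, by -0.67. Irf8 differed by 0.79 and Klf1 by 1.31 without Tet2-/- 1 and 3, and the monocyte and megakaryocyte medians were both 0.36. With Tet2 intact Irf8 and Klf1 differed by 0.7 and 0.66, and with Tet2 lost by 2.38 and 4.14. B cell genes were negative in 14 of 18 (median -0.69), at a summed 122 to 170 CPM in Nras(G12D) libraries and 114 to 155 CPM in double mutants, against 148 to 228 CPM in WT and 166 to 235 CPM in Tet2-/- libraries. Of the 18, 4 passed the filter only through the normal side, as did 315 of all tested genes. A negative difference in these 4 was favoured by how they entered. The reverse holds for Lyz1 of the monocyte list, which passed only through the G12D side. Cr2, a complement receptor gene, did not overlap, with 0.878 to 1.42 CPM in G12D libraries and 1.69 to 3.65 CPM in normal libraries. Lymphoid priming genes had opposite medians, 0.46 with Tet2 intact and -0.78 with Tet2 lost. Satb1, a chromatin organiser of lymphoid progenitors, did not overlap, with 168, 102 and 68.6 CPM in Nras(G12D) libraries and 70.1, 121 and 100 CPM in double mutants, against 51.4, 66.2 and 49.1 CPM in WT and 25.2, 55 and 49.1 CPM in Tet2-/- libraries (difference 1.08 ± 0.26). Rag1, the recombinase gene of lymphocytes, differed by -1.59 and Blnk, a B cell adaptor gene, by -1.15. T and NK cell genes were negative in 6 of 11 (median -0.08, with 0.6 in Tet2-intact and -0.25 in Tet2-null cells). Cd4 differed by -1.46, without overlap, and Klrb1c by -1.2, while Gzmb and Lat differed by 1.3 and 0.55. Zap70 of this list passed the filter only through the G12D side. Stromal and endothelial genes were negative in 8 of 9 (median -0.29). The part of other cell types in these differences was not tested.

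Cell cycle inhibitors were positive in 16 of 16 (median 0.65, with 0.16 in Tet2-intact and 1.23 in Tet2-null cells), and 5 passed as higher in the fit with a mean per group, against 12.5% of all genes. Besides Btg1 these were Cdkn2c, the p18 CDK inhibitor gene, at 1.15, Tob1, an antiproliferative gene, at 1.27, and the growth arrest genes Gadd45a and Gadd45g at 1.49 and 1.20. Cdkn1a, the p21 gene, had a difference of 0.04 and Cdkn1b, the p27 gene, 0.45. DNA replication genes were negative in 21 of 28 (median -0.24) and mitosis genes in 14 of 25 (median -0.03). Ccna2, the cyclin A2 gene, differed by 2.01 and Cdc6, a replication licensing gene, by -0.59. The p53 targets had a median of 0.20 with 14 of 23 positive, and the BCL2 family a median of 0.53 with 12 of 14. Bbc3, the PUMA gene that promotes cell death, differed by 2.12, Bcl2 by 0.57 and Mcl1 by 0.97, both of which encode survival proteins. Bbc3 differed by 1.28, Ccna2 by 1.28 and Gadd45a by 0.77 without Tet2-/- 1 and 3, and the p53 target median was 0.07. With Tet2 intact Bbc3, Ccna2 and Gadd45a differed by 0.61, 0.55 and 0.17, and with Tet2 lost by 3.63, 3.46 and 2.8. Homeobox and leukaemic self-renewal genes were positive in 22 of 25 (median 0.46, with 0.07 in Tet2-intact and 0.93 in Tet2-null cells). Sox4, an oncogenic transcription factor, had 17.2, 23.1 and 4.4 CPM in Nras(G12D) libraries and 14.8, 187 and 261 CPM in double mutants, against 3.35, 11.1 and 4.87 CPM in WT and 2.8, 3.9 and 3.7 CPM in Tet2-/- libraries (difference 2.90, adjusted p = 0.0744). Double mutant 2 and 3 were far above the other 10 libraries. Lmo2, Runx1 and Myb differed by 1.62, 1.25 and 1.01, and by 1.1, 0.97 and 0.77 without Tet2-/- 1 and 3. Some members of these lists passed the filter only through the G12D side, which favours a positive difference. They were Btg3 of the cell cycle inhibitors, Perp and Plk3 of the p53 targets, Bcl2a1d of the BCL2 family and Hoxa6 of the homeobox list.

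Interferon-stimulated genes were negative in 29 of 32, with a median of -0.47, and 8 passed as lower in the fit with a mean per group, against 4.83% of all genes. The median was -0.18 with Tet2 intact and -0.83 with Tet2 lost, and their summed level was 1520 to 2220 CPM in Nras(G12D) libraries and 1510 to 2050 CPM in double mutants, against 2010 to 2110 CPM in WT and 2330 to 3850 CPM in Tet2-/- libraries. Ifih1, the gene of the RNA sensor MDA5, was the 1 member without overlap, with 33.4, 37.3 and 34.2 CPM in Nras(G12D) libraries and 38.5, 32.3 and 24.2 CPM in double mutants, against 41.8, 42.1 and 45.6 CPM in WT and 49.5, 47 and 45.4 CPM in Tet2-/- libraries (difference -0.45 ± 0.15, adjusted p = 0.0772). Such separation in the lower direction was seen in 0.934% of all tested genes. Rsad2, Ifit1 and Ddx58, antiviral genes, differed by -0.92, -0.80 and -0.73. Without Tet2-/- 1 and 3 the median was -0.29. Cytokine receptor and JAK-STAT genes were positive in 20 of 29 (median 0.40, and 0.14 without Tet2-/- 1 and 3). Socs1 and Socs3, feedback inhibitors of cytokine signalling, differed by 2.56 and 1.16, while Cish and Socs2 of the same family differed by -0.98 and -1.29. Socs1 passed the filter only through the G12D side, where it is high. NF-kB and inflammatory genes had a median of -0.01 with 13 of 26 positive, among them Tnfaip3, the A20 inhibitor gene, at 1.04 and Nfkbiz at 0.81. The other 13 were negative, down to -0.97, and Il6 passed the filter only through the G12D side.

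Glycolysis genes were negative in 18 of 23 (median -0.28), with Pfkp and Pfkm, the phosphofructokinase genes, at -0.56 and -0.51 beside Ldhb, while Pdk1, which holds back pyruvate oxidation, differed by 0.86. Cytosolic ribosomal protein genes were positive in 29 of 34 with a median of 0.16, but 34 of 34 were positive with Tet2 intact (median 0.46) and 10 of 34 with Tet2 lost (median -0.15). Respiratory chain genes had a median of 0.04 and unfolded protein response genes 0.21, which were at -0.19 with Tet2 intact, 0.84 with Tet2 lost and -0.01 without Tet2-/- 1 and 3. Edem1, which targets misfolded proteins for degradation, did not overlap between the sides (difference 1.09). Atf5 of the same list passed the filter only through the G12D side. Among genes of the DNA methylation machinery 9 of 18 were positive (median -0.02), and Tet3, Dnmt3b and Uhrf2 differed by 0.84, 0.67 and 1.16. The Tet3 difference was 0.45 without Tet2-/- 1 and 3. Polycomb and histone-modifying enzymes had a median of 0.16. Ezh2, the H3K27 methyltransferase gene, differed by 0.78 and its paralog Ezh1 by -0.59. Splicing factors were negative in 14 of 24 (median -0.08), with Srsf6 and Srsf1 at 1.42 and 1.0 and Srsf12 at -1.05. Homing and adhesion receptors had a median of -0.24, with the integrin gene Itgb7 at 1.89 and the junction gene Jam3 at -1.35. In each of these lists no gene passed the additive fit.

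**Figure D4:**
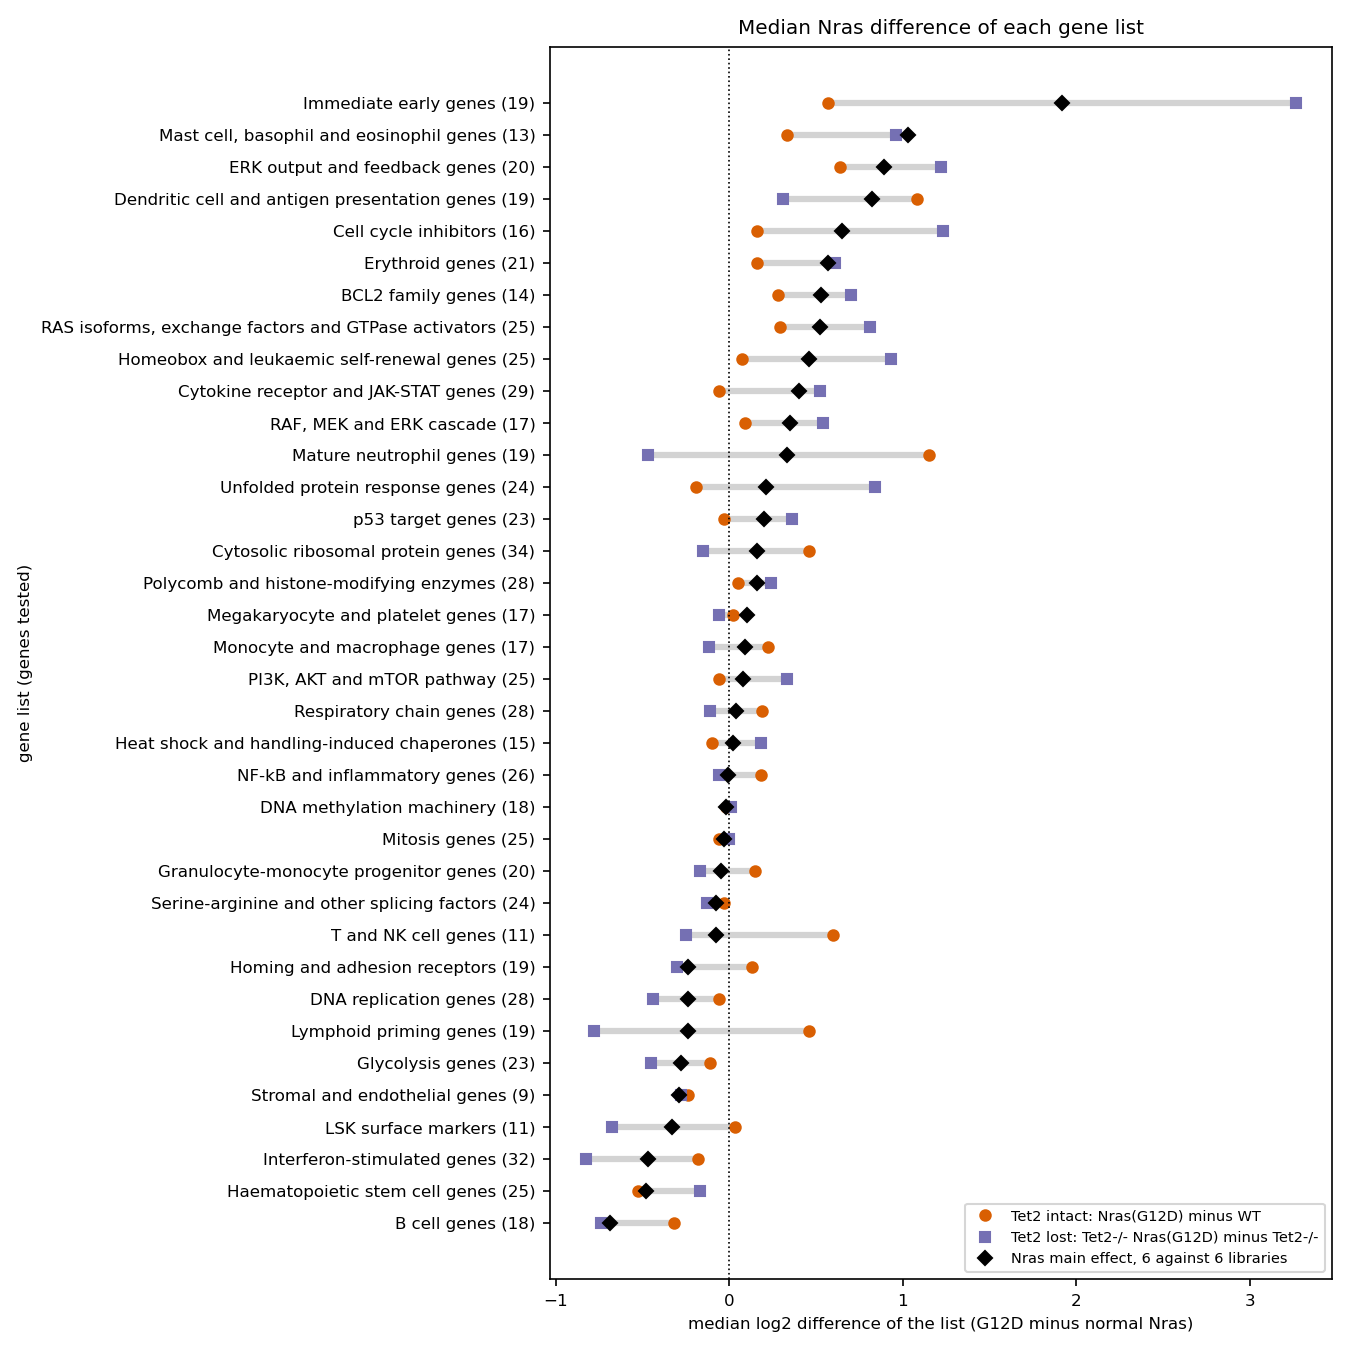
Median log2 difference (G12D minus normal Nras) of the tested genes in each of the 36 lists, for the main effect (black diamonds), for Nras(G12D) minus WT (orange circles) and for Tet2-/- Nras(G12D) minus Tet2-/- (purple squares), with the number of tested genes in brackets and the median of all genes dotted. Among the main-effect diamonds, immediate early genes lie farthest right at 1.92 and B cell genes farthest left at -0.69.

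The pooled difference averages 2 contrasts that share no library, Nras(G12D) minus WT and double mutant minus Tet2-/-. Across the 13710 genes the 2 differences had the same sign in 63.6%, and their correlation was 0.394 (Spearman) and 0.286 (Pearson), given as a description since genes are not independent. The spread of the difference was wider with Tet2 lost, with an SD over genes of 1.12, than with Tet2 intact, at 0.593. A difference of more than 1 in size was seen in 3918 genes with Tet2 lost and 822 with Tet2 intact. In the pooled effect 1964 genes exceeded 1 in size, 1682 of them higher and 282 lower. The test of whether the Nras difference itself differed between backgrounds called 0 genes (0%, limma, smallest adjusted p = 0.0714), while 3402 genes (24.8%) had an unadjusted p below 0.05. Without Tet2-/- 2 this test called 2502 genes and without double mutant 1 it called 618, against 0 to 2 without any other library. Egr1 was among the 3 genes at the smallest adjusted p, with an interaction of 4.46, and Jun had an interaction of 5.21 (adjusted p = 0.128). For 3 of the lower genes the interaction was close to 0, at -0.04 for Mecom, 0.03 for Prmt5 and -0.04 for Ldhb.

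**Figure D5:**
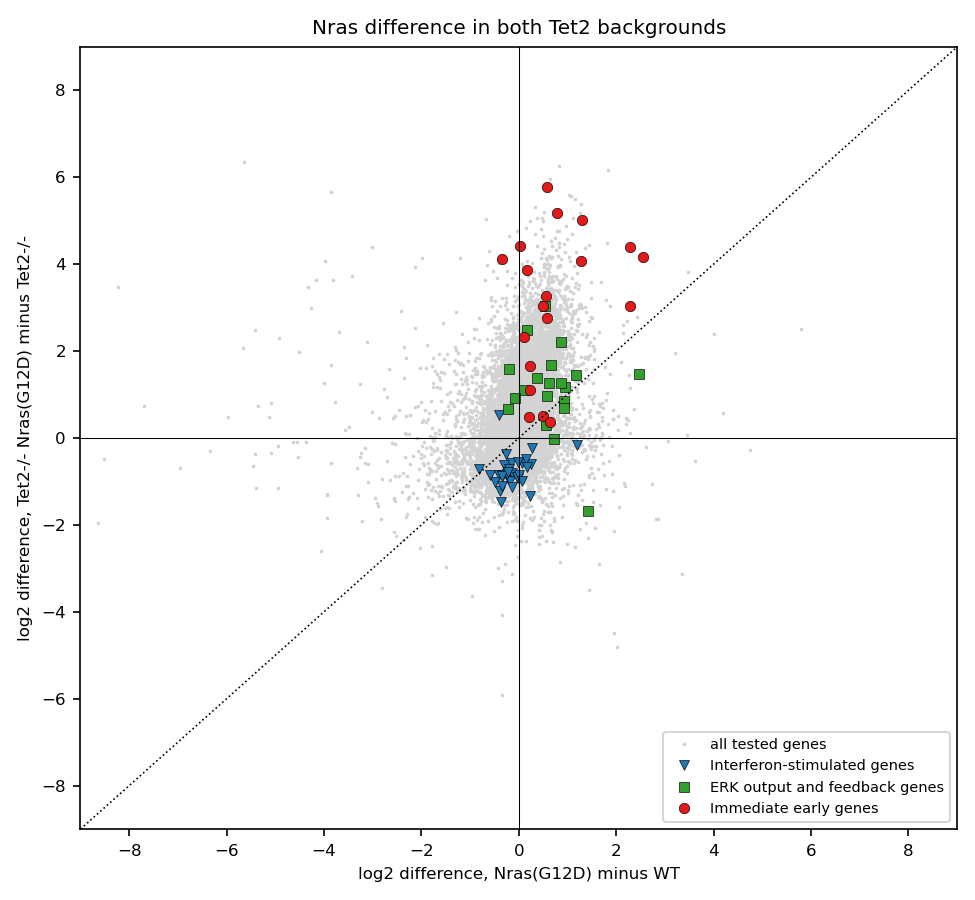
Log2 Nras difference with Tet2 lost (vertical axis, Tet2-/- Nras(G12D) minus Tet2-/-) against that with Tet2 intact (horizontal axis, Nras(G12D) minus WT) for all 13710 tested genes (grey) and 3 lists. Immediate early genes (red circles, medians 0.57 and 3.27) spread upward, ERK output genes (green squares, 0.64 and 1.22) lie nearer the diagonal, and interferon-stimulated genes (blue triangles, -0.18 and -0.83) are below 0 on both axes in 23 of 32.

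The genes next to Nras were looked at because a targeted allele is carried with its flanking chromosome. Within 5 Mb of Nras on either side (chr3:98058285-108067914, GRCm38), 81 genes were tested and 0 passed the additive fit. In the fit with a mean per group 7 were higher and 1 lower, where 12.5% and 4.83% of all genes were. In 1 gene all G12D libraries lay below all normal libraries, against 0.934% of all genes, so these counts were near or below those shares. The median difference of the 81 genes was -0.06, with 39 above 0, against 0.001 for all tested genes.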

How the data were processed

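LSK cells were sorted from bone marrow and sequenced from stranded mRNA libraries, per the labels' protocols. STAR 2.4.0f1, edgeR 3.14.0 and limma 3.28.21 are named per the submitters' processing notes, with the builds mm10 and NCBIM37; for the counting step and its annotation, tool and version were not given in the sources used here. The authors deposited log2 CPM values, in which 0.5 had been added to counts, and whole counts came back from 100% of the values (largest distance 8.32e-09, tolerance 1e-06).

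The 12 libraries were grouped by their labels, and the log2 values were fitted with limma 3.58.1 in R 4.3.3, with Nras and Tet2 as additive terms (9 residual degrees of freedom). The 13710 genes with a log2 value of at least 0 in 3 or more libraries were tested. Adjusted p-values are Benjamini-Hochberg over all of them, and the threshold was 0.05. A fold change on this log2 scale understates the change of genes with few counts. The same contrast from a mean per group and the Nras by Tet2 interaction had 8 residual degrees of freedom. Coordinates are from GENCODE M21 (GRCm38) and promoter windows from RefSeq (GRCm38.p6).

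The 36 gene lists, the comparison and the rules were chosen with earlier results of these data known. Named genes were Nras, Tet2, Spry2, Dusp6, Fos, Jun and Egr1, the called genes, up to 10 genes of smallest p in each direction with a mean log2 value of at least 3 on the higher side, and the 4 of smallest p per list; other list members are named as examples chosen after their values were seen. 1 listed symbol had no row in the table. A count of 0 allows up to 3 counts, or 0.0775 to 0.127 CPM, for counting error only. The labels do not say that library numbers pair the samples, and the main fits had no replicate block. Alternatives changed the scaling, added count, filter, weights, covariates, block, threshold and libraries, and the code was tested on simulated data. Results for some listed genes are not reported here.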

Additional observations from a re-analysis of the deposited data

Results flagged for a closer look

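In 9 of 316 sets of 6 libraries (2.85%), 1 library lay far from the nearest of the other 5. Chance gives such a gap in about 1 in 20 sets, so these are listed as values. Among the G12D libraries, Mecom had 36.4 CPM in Nras(G12D) 1, where the nearest library had 56.0 CPM. Spry2 had 2.61 CPM in Nras(G12D) N2-3, with the nearest at 4.89 CPM, and Wfdc21 had 18.1 CPM in the same library, with the nearest at 3.86 CPM. Bag3 had 8.86 CPM in Nras(G12D) 3, with the nearest at 13 CPM. Prss34 had 65.5 CPM in double mutant 1, with the nearest at 30.9 CPM, and Cr2 had 0.878 CPM in double mutant 3, with the nearest at 1.24 CPM. Among the normal libraries, Tet2-/- 1 was far from the rest for Procr, at 132 CPM with the nearest at 51.4 CPM, and for Satb1, at 25.2 CPM with the nearest at 49.1 CPM. Cd79a had 12.8 CPM in WT 1, with the nearest at 5.27 CPM.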

How the results depend on the processing

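The additive fit called 2 genes. It called 0 with scaling by total counts, an added count of 2, no filter on low values, a log2 value of at least 0 in 6 libraries, robust hyperparameters, a Y-linked covariate or no Tet2 covariate, and 1 with voom precision weights. It called 2594 with array weights and 2983 at an adjusted p below 0.1. With all 15 libraries in 1 fit, which gave each group its own mean and so was not additive, 1795 genes passed. The fit with a mean per group called 2379 genes, against 3615 with quantile normalization (1642 higher, 1973 lower), 4910 with median centring (1619 higher, 3291 lower), 6067 with array weights and 5008 at an adjusted p below 0.1. Quantile normalization and median centring moved the median of all genes by -0.117 and -0.24. The interaction called 0 genes, 4 with median centring, 6607 with array weights and 3 at an adjusted p below 0.1. With 1 library left out, the counts ran between 0 and 3387 in the additive fit, 0 and 5142 with a mean per group, and 0 and 2502 for the interaction. With Tet2-/- 1 and 3 both left out, an alternative chosen after seeing the data, the additive fit called 1 gene and the fit with a mean per group 2. The cause of these shifts was not tested.

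Of 15 pairs of libraries with the same number, 8 deviated together with a correlation above 0.1, over a range of -0.361 to 0.29. Among pairs of different number, Nras(G12D) 3 had -0.442 with WT 2 and 0.493 with WT 1. These values do not decide whether libraries of the same number belong together, and the labels do not say. With a replicate block over the 11 numbered libraries, the additive fit called 2760 genes and the fit with a mean per group 4164. With N2-3 taken as number 2, the replicate block gave 0 in the additive fit, 2600 with a mean per group and 0 for the interaction.

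Over 158 named genes, 4577 values under alternatives included 3804 with the same sign and side of the threshold, 733 that newly passed, 36 that no longer passed and 4 of opposite sign, all for Tet2. Its difference of 0.10 was -0.03 with quantile normalization, -0.14 with median centring and -0.05 without Tet2-/- 1 and 3, and it lay between 0 and 0.19 with 1 library left out.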
